A study of Mus musculus with 70 samples.

Results

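A set of 8 genes that macrophages and mucus-making airway cells are known for was followed through the lungs of 70 male mice: the chitinase-like genes Chil3 and Chil1, the macrophage genes Retnla and Arg1, the secreted protease gene Clca1, the gel-forming mucins Muc5ac and Muc5b, and the mucus protein gene Fcgbp. They were found by symbol among the 24420 gene rows of the count table, and all 8 of the 8 names had a row. The members were chosen by their CPM in single air lungs of 9 months, so those values are given below as a description with no test.

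The mice were of strain 129S-Slc26a4tm1Erg/AjgJ, bred from heterozygous parents, and were homozygous knockout (KO) or homozygous wildtype (WT) at Slc26a4, which encodes the anion exchanger pendrin and is also called Pds. At about 3 months of age they breathed Min-U-Sil5 crystalline silica at 15 mg/m3, or air, for 6 hours a day on 4 days in a whole-body chamber. A piece of lung was taken 1 day, 3 months or 9 months later. The 12 groups were KO silica, KO air, WT silica and WT air at each of the 3 times, with 6 mice in 10 groups and 5 mice in each of the 2 WT groups of 9 months. The knockout is not limited to a cell type, and the values are of whole lung. A higher or lower level in such tissue can come from more or fewer cells of a type or from more or less RNA per cell, and these cannot be told apart.

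Ribosome-depleted total RNA was sequenced, and the libraries held 802478 to 5596316 counts on genes (median 2183480). Values are CPM, a gene's reads per 1000000 reads of its library, scaled so that the bulk of genes is level between libraries. All 8 defining lung genes, among them the surfactant gene Sftpc and the club cell gene Scgb1a1, were detected in every group, and their summed level lay between 14404 and 30366 CPM. Slc26a4 lay between 3.37 and 36.3 CPM in KO silica lungs and between 0.979 and 3.23 CPM in KO air lungs of 1 day and 3 months, against 20.4 to 78.9 CPM in WT silica lungs and 4.21 to 15.0 CPM in WT air lungs of 1 day and 3 months.

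The libraries of 3 air lungs of 9 months, of KO silica mouse 3 of 3 months and of KO silica mouse 3 of 1 day stood apart from their groups. In the library labelled KO air mouse 4 (9 months), Slc26a4 reached 51.5 CPM, above every other KO lung of any group. Whether the label is right was not tested. Slc26a4 was 16.7 CPM in KO air mouse 5, and between 1.32 and 3.70 CPM in the other 4 KO air lungs of 9 months. In WT air mouse 5 of 9 months it was 73.9 CPM, against 6.40 to 21.5 CPM in the other 4 WT air lungs of that time. Of 14433 genes with a mean of at least 1 CPM, 9.26% in the library labelled KO air mouse 4, 10.8% in KO air mouse 5 and 8.29% in WT air mouse 5 lay above all 59 lungs outside the air groups of 9 months, while the other 8 air lungs of 9 months ranged from 0.845% to 3.55%. KO silica mouse 3 of 3 months had the highest Chil3 and the lowest Retnla of its group. Mouse numbers follow the order of deposit and serve only as names.

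Chil3 (also Ym1) and Chil1 belong to the chitinase family but have lost the enzyme activity, and both are secreted. Mouse macrophages make Chil3, Retnla (resistin-like alpha, also Fizz1) and the arginine-splitting enzyme Arg1 when interleukin 4 or interleukin 13 acts through the receptor chain Il4ra and the transcription factor Stat6, a state called alternative activation. The same cytokines turn airway secretory cells into goblet cells, which release the mucins Muc5ac and Muc5b together with Clca1 and Fcgbp. Chil1 is also made in lung by epithelial cells and neutrophils, and it follows inflammatory signals.

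RefSeq (GRCm38.p6) gave a start region for 4 of the 8 members, and the 250 bases before the start are shown for the 3 members that passed the test in a silica comparison: Chil3 (chr3:106167565-106167814, minus strand), Retnla (chr16:48842359-48842608, plus strand) and Chil1 (chr1:134181906-134182155, plus strand). A search for 5 short motifs covered both strands, and matches are in capitals: TTCNNNNGAA and TTCNNNGAA, the spaced palindromes that STAT factors bind, the NF-kappa-B consensus, TTGCNNAA, a C/EBP type motif, and TATAAA.
Chil3: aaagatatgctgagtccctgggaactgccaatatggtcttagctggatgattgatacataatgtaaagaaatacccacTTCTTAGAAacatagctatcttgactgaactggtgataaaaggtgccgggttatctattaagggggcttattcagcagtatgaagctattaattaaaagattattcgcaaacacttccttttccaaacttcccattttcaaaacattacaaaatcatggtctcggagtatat
Retnla: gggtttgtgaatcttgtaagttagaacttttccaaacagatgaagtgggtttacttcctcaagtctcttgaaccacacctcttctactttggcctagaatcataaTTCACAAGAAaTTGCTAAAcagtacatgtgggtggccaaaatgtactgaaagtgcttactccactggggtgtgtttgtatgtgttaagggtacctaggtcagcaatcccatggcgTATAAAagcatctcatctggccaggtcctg
Chil1: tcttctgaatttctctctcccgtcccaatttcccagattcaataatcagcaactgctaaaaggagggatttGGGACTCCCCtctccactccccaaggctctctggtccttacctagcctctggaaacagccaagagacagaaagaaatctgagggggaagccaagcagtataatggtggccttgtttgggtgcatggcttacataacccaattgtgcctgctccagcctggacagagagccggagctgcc

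Retnla held TTCACAAGAA at 145 to 136 bases before the start, followed without overlap by a TTGCNNAA match at 134 to 127 bases and by TATAAA at 30 to 25 bases before it. Chil3 held TTCTTAGAA at 172 to 164 bases before the start, and Chil1 held GGGACTCCCC, which reads as an NF-kappa-B match on either strand, at 179 to 170 bases. Fcgbp had no match to the 5 motifs in its window. Among 32851 start regions of the same length, 5.85% held TTCNNNNGAA, 7.02% TTCNNNGAA, 7.25% the NF-kappa-B consensus, 9.56% TTGCNNAA and 12.4% TATAAA. A match describes letters only, and binding was not measured.

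On GRCm38 the members lie at chr3:106147554-106167564 (Chil3), chr1:134182156-134190031 (Chil1), chr16:48842609-48844461 (Retnla), chr10:24915207-24927470 (Arg1), chr3:145004537-145032776 (Clca1), chr7:141788958-141819227 (Muc5ac), chr7:141839059-141873089 (Muc5b) and chr7:28071236-28120864 (Fcgbp), so the 2 mucins are neighbours. Per kilobase of annotated exon, the median over the 59 lungs outside the air groups of 9 months was 318 CPM for Chil3, 186 for Chil1, 82.6 for Retnla, 2.35 for Muc5b, 0.696 for Arg1, 0.361 for Fcgbp and 0.146 for Muc5ac, and Clca1 had a median of 0. Chil3 was thus by length the most abundant member, and Chil1 and Retnla followed. Arg1 had at most 3 counts in 44 of these 59 lungs, Clca1 in 52, Muc5ac in 28 and Fcgbp in 13, so for these 4 genes the depth resolves only large differences. Chil3 shares long stretches of sequence with its neighbour Chil4, and how reads that fit both were counted is not given in the sources used here.

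**Figure D1:**
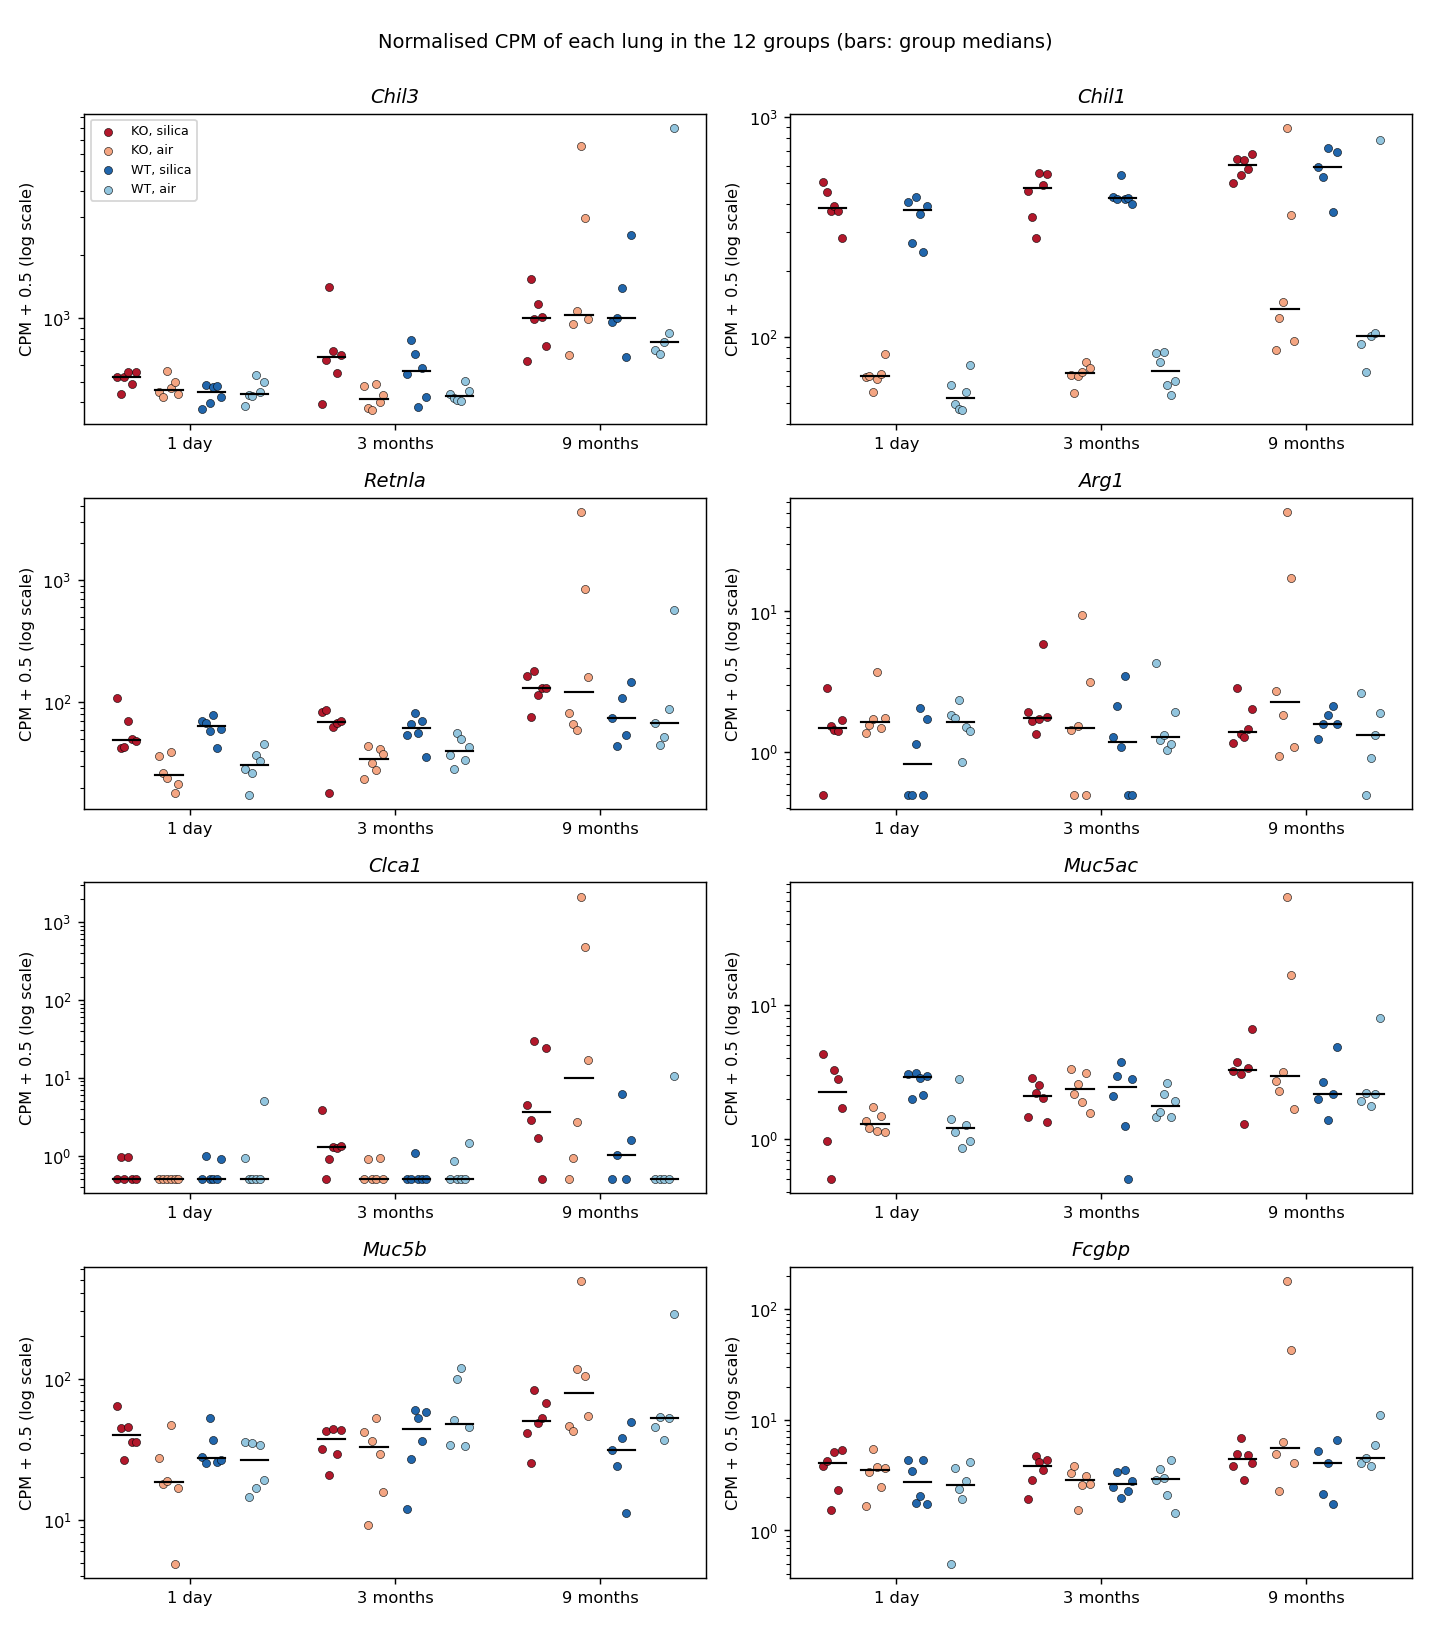
Normalised CPM plus 0.5 on a log axis for each member (panel) and each lung (point) for the 3 times from left to right, with KO silica, KO air, WT silica and WT air side by side at each time and bars at group medians. Chil1 of silica lungs sits above that of air lungs at 1 day and 3 months, and the highest point of every panel is an air lung of 9 months, at 7987 CPM for Chil3 and 2118 CPM for Clca1.

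Silica against air at 1 day and 3 months shows which members differ after inhaled silica, and the test was edgeR's quasi-likelihood test in a fit of the 24 libraries of each time, with p adjusted over all genes tested by Benjamini-Hochberg and called under 0.05. The filter on low counts passed 4 members at these times, Chil1, Chil3, Retnla and Muc5b. In KO lungs 2 of these 4 were higher after silica at 1 day (background 1.70% of 12558 genes) and 3 of 4 at 3 months (background 3.02% of 12647 genes). In WT lungs 2 of 4 were higher at 1 day (background 1.95%) and 1 of 4 at 3 months (background 2.24%). The others did not pass.

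Chil1, a secreted chitin-binding protein without chitinase activity, was the member with the largest silica response. In KO lungs of 1 day Chil1 ranged from 280.4 to 505 CPM after silica (median 383), against 55.6 to 83.0 CPM in air (median 65.5), a log2 fold change of 2.56 ± 0.15 (SE, 6 against 6 mice, edgeR adjusted p = 1.35e-14). In WT lungs of 1 day it ranged from 243 to 430.1 CPM after silica (median 377), against 45.8 to 74.0 CPM in air (median 52.2), a log2 fold change of 2.69 ± 0.14 (edgeR adjusted p = 1.46e-15). Every silica lung lay above every air lung of its genotype at 1 day.

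At 3 months Chil1 ranged from 279.6 to 555 CPM in KO silica lungs (median 473), against 55.1 to 76.7 CPM in KO air lungs (median 67.6), a log2 fold change of 2.74 ± 0.14 (edgeR adjusted p = 4.64e-15). In WT lungs of 3 months it ranged from 402 to 541 CPM after silica (median 425), against 53.7 to 85.0 CPM in air (median 69.3), a log2 fold change of 2.65 ± 0.13 (edgeR adjusted p = 5.55e-15). The groups again did not overlap, and the silica effect at 3 months lay within 1 standard error of that at 1 day in KO lungs (change of 0.19 ± 0.21) and in WT lungs (-0.04 ± 0.20).

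Retnla, a secreted cysteine-rich protein of alternatively activated macrophages and airway cells, rose in both genotypes at 1 day. In KO lungs of 1 day Retnla ranged from 41.6 to 108 CPM after silica (median 49.0), against 17.6 to 38.8 CPM in air (median 24.8), with no overlap and a log2 fold change of 1.12 ± 0.23 (edgeR adjusted p = 0.00309). In WT lungs it ranged from 41.7 to 78.0 CPM after silica (median 63.7), against 17.1 to 45.1 CPM in air (median 30.2), a log2 fold change of 1.07 ± 0.21 (edgeR adjusted p = 0.00166). The WT groups overlapped by 1 silica and 1 air lung. Both calls were lost in a model of all 70 libraries, which takes in the air lungs of 9 months (edgeR adjusted p = 0.570 in KO and 0.459 in WT lungs).

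At 3 months Retnla passed the threshold in KO lungs, narrowly. It ranged from 17.7 to 85.4 CPM in KO silica lungs (median 68.7), against 23.0 to 43.4 CPM in KO air lungs (median 34.2), a log2 fold change of 0.86 ± 0.24 (edgeR adjusted p = 0.0294). Of the 6 KO silica lungs 5 lay above every KO air lung, and mouse 3 lay below them all. In WT lungs of 3 months it ranged from 35.3 to 81.5 CPM after silica (median 60.8), against 28.3 to 55.4 CPM in air (median 39.6), with a log2 fold change of 0.62 ± 0.23 that did not pass (edgeR adjusted p = 0.162). The KO call was lost when any 1 of 7 KO lungs was left out (KO silica mice 1, 2, 5 and 6 and KO air mice 1, 3 and 4; edgeR adjusted p up to 0.0770), when the other groups were left out (0.0635), and in a model of all 70 libraries (0.574). The WT value passed when the KO lungs were left out of the fit (edgeR adjusted p = 0.0290) and without KO silica mouse 3 (0.0114).

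Chil3, the crystal-forming lectin Ym1, is a main product of resident lung macrophages, and its level was high in air lungs already. In KO lungs of 1 day Chil3 ranged from 437 to 555 CPM after silica (median 528), against 422 to 562 CPM in air (median 456), a log2 fold change of 0.13 ± 0.08 (edgeR adjusted p = 0.611). In WT lungs of 1 day it ranged from 371 to 480.2 CPM after silica (median 446), against 383 to 538 CPM in air (median 439), a log2 fold change of -0.06 ± 0.08 (edgeR adjusted p = 0.803). The ranges overlapped almost whole in both genotypes.

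At 3 months Chil3 was higher in KO silica lungs, which ranged from 393 to 1404 CPM (median 652), against 366 to 489.6 CPM in KO air lungs (median 416), a log2 fold change of 0.78 ± 0.19 (edgeR adjusted p = 0.0103). Without KO silica mouse 3, the lung with 1404 CPM, the log2 fold change was 0.48 (edgeR adjusted p = 0.0285), and in a model of all 70 libraries it did not pass (0.317). In WT lungs Chil3 ranged from 379 to 784 CPM after silica (median 561), against 404 to 502 CPM in air (median 427), and a log2 fold change of 0.38 ± 0.19 did not pass (edgeR adjusted p = 0.370). The KO and WT effects were not shown to differ by the test of their difference (0.41 ± 0.26, edgeR adjusted p = 0.750).

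Muc5b, the gel-forming mucin that mouse airways make at rest, did not pass in any of the 4 comparisons. In KO lungs of 1 day Muc5b ranged from 25.9 to 63.7 CPM after silica (median 39.7), against 4.41 to 46.5 CPM in air (median 18.0), a log2 fold change of 0.95 ± 0.29 (edgeR adjusted p = 0.111). It passed there without KO air mouse 4 (1.25, edgeR adjusted p = 0.0136), without KO silica mouse 3 (1.05, adjusted p = 0.0449) and with no filter on low counts (0.95, adjusted p = 0.0482). The log2 fold change was 0.31 ± 0.28 in WT lungs of 1 day, 0.22 ± 0.38 in KO lungs of 3 months and -0.61 ± 0.33 in WT lungs of 3 months.

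**Figure D2:**
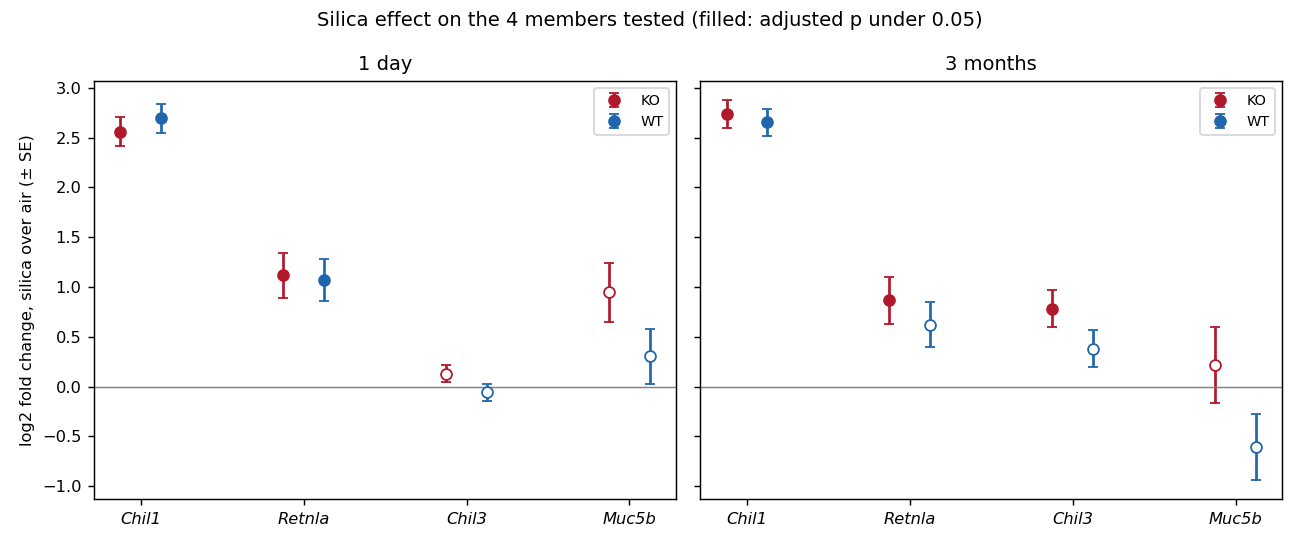
Log2 fold change of silica over air with its standard error for the 4 members tested, in KO (red) and WT (blue) lungs at 1 day (left) and 3 months (right), filled where the adjusted p was under 0.05. Chil1 lies between 2.56 and 2.74 throughout, Retnla near 1 at 1 day, and Chil3 is filled only for KO lungs of 3 months.

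The other 4 members were too low for the filter at 1 day and 3 months. Muc5ac, the mucin that goblet cells add when stimulated, ranged from 0 to 3.80 CPM in KO silica lungs of 1 day (median 1.75), against 0.633 to 1.24 CPM in KO air lungs (median 0.790). In WT lungs of 1 day it ranged from 1.49 to 2.58 CPM after silica (median 2.40), against 0.358 to 2.32 CPM in air (median 0.700). With no filter the log2 fold changes of Muc5ac were 1.09 ± 0.55 in KO and 1.11 ± 0.45 in WT lungs of 1 day, and neither passed (edgeR adjusted p = 0.512 and 0.276).

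Clca1, a secreted protease that goblet cells release with mucus, was at 0 counts in 35 of the 59 lungs outside the air groups of 9 months. At 3 months it ranged from 0 to 3.33 CPM in KO silica lungs (median 0.786), against 0 to 0.438 CPM in KO air lungs (median 0), and the difference did not pass with no filter (edgeR adjusted p = 0.128). In WT lungs of 3 months the highest values were 0.591 CPM after silica and 0.949 CPM in air. Arg1, which turns arginine into ornithine and urea, had group medians of 0.322 to 1.24 CPM in the 8 groups of 1 day and 3 months, and Fcgbp, an IgG Fc-binding protein of mucus, of 2.08 to 3.55 CPM. With no filter, neither gene passed in any of the 4 silica comparisons.

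KO against WT at the same exposure and time asks whether the members differ where pendrin is lost. By edgeR 0 of the 4 members tested passed in silica lungs of 1 day (background 0.00796% of genes), in air lungs of 1 day (0.0478%), in silica lungs of 3 months (0.174%) or in air lungs of 3 months (0.142%). In silica lungs of 9 months 0 of 6 tested passed (background 0%), and the air lungs of 9 months entered the filter and the estimate of spread. Clca1, 1 of these 6, missed the filter in the fit of the silica libraries alone. At an unadjusted p under 0.05 there was 1 member in silica lungs of 1 day, Chil3 (log2 fold change 0.23 ± 0.08, adjusted p = 0.458), and 1 in air lungs of 3 months, Muc5b (-1.06 ± 0.35, adjusted p = 0.223). There was 0 in the other 3 comparisons, and DESeq2 and limma voom called 0 in all 5.

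Slc26a4 itself was lower in KO than in WT silica lungs at 1 day (-1.90 ± 0.25, adjusted p = 8.33e-05) and 3 months (-2.08 ± 0.23, adjusted p = 2.83e-06). In air lungs it was lower at 3 months (-2.46 ± 0.39, adjusted p = 0.00361), and the value of -2.15 ± 0.47 at 1 day did not pass (adjusted p = 0.0824). In silica lungs of 9 months the log2 fold change was -2.16 ± 0.57, about as large, and did not pass either (adjusted p = 1). The comparison at 9 months thus did not call the targeted gene itself, so its count of 0 members says little. The silica effect on the members was not shown to differ between KO and WT lungs, with 0 members called by edgeR, DESeq2 or voom and 0 at an unadjusted p under 0.05 at either time (background 0% of genes at both). The silica effect on Chil1 differed between KO and WT lungs by -0.13 ± 0.20 at 1 day and 0.09 ± 0.19 at 3 months, and that on Chil3 by 0.19 ± 0.12 and 0.41 ± 0.26.

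At 3 months against 1 day 0 of 4 members passed in edgeR, in KO silica lungs (background 1.77%), in KO air lungs (0.00773%), in WT silica lungs (1.66%) or in WT air lungs (0.0309%). At an unadjusted p under 0.05 there was 1 member in KO silica lungs, Chil3 (0.50 ± 0.15, adjusted p = 0.0694, and 0.00920 or 0.0381 without KO silica mouse 1 or 5 of 3 months), 0 in KO air lungs, 2 in WT silica lungs (Chil1 0.33 ± 0.13, Chil3 0.38 ± 0.15) and 2 in WT air lungs (Chil1 0.37 ± 0.16, Muc5b 1.26 ± 0.32). DESeq2 called 0 in all 4, and voom called 1, Muc5b in WT air lungs (adjusted p = 0.0310). The silica effect at 3 months less that at 1 day had 0 members called in KO lungs (background 0%) and 0 in WT lungs (background 0.0232%), by edgeR, DESeq2 and voom, with Chil3 at an unadjusted p under 0.05 in each (0.66 ± 0.22 in KO, 0.44 ± 0.22 in WT).

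In silica lungs, 9 months against 3 months, 1 of 5 members tested was higher in each genotype, and it was another one in each (background 3.30% in KO and 0.924% in WT lungs). In KO silica lungs Retnla ranged from 74.8 to 180.2 CPM at 9 months (median 131), against 17.7 to 85.4 CPM at 3 months (median 68.7), a log2 fold change of 1.07 ± 0.26 (edgeR adjusted p = 0.00709, and 0.284 in a model of all 70 libraries). In WT silica lungs the change of Retnla was 0.47 ± 0.27 (adjusted p = 0.452). In KO air lungs Retnla ranged from 59.4 to 3589 CPM at 9 months, against 23.0 to 43.4 CPM at 3 months, with no overlap. In WT air lungs it ranged from 44.6 to 566 CPM, against 28.3 to 55.4 CPM. The air lungs of 9 months chose the members, so these values carry no test. Whether the change over time differed between silica and air lungs, or between genotypes, was not tested.

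Chil3 of WT silica lungs was 962, 998, 1386, 656 and 2466 CPM in the 5 mice of 9 months, against 379 to 784 CPM at 3 months (median 561), a log2 fold change of 1.19 ± 0.24 (edgeR adjusted p = 0.00467). Of the 5 lungs of 9 months 4 lay above every lung of 3 months. Without WT silica mouse 5, the lung with 2466 CPM, it was 0.82 (edgeR adjusted p = 0.0625). In a model of all 70 libraries the edgeR adjusted p was 0.102. In KO silica lungs the change of Chil3 was 0.48 ± 0.23 (adjusted p = 0.230), and 0.78 (adjusted p = 0.0165) without KO silica mouse 3 of 3 months. Air lungs, given with no test, also held more Chil3 at 9 months, at 671 to 6564 CPM in KO and 673 to 7987 CPM in WT. Air lungs of 3 months held 366 to 489.6 CPM in KO and 404 to 502 CPM in WT. Chil1 changed by 0.41 ± 0.15 in KO and 0.39 ± 0.16 in WT silica lungs, and neither passed (edgeR adjusted p = 0.0886 and 0.202).

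Clca1 in KO silica lungs was 4.03, 2.35, 29.4, 1.18, 0 and 23.5 CPM in mice 1 to 6 at 9 months, against 0 to 3.33 CPM at 3 months. It missed the filter, and with no filter its log2 fold change was 3.10 ± 0.66 (edgeR adjusted p = 0.00222), a fitted value that depends on the small counts of 3 months. In WT silica lungs of 9 months it was 0, 0.540, 5.77, 0 and 1.10 CPM, and the change did not pass (adjusted p = 0.448 with no filter).

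The single values of the air lungs of 9 months chose the members, and what follows is a description. For all 8 members the highest lung of the 70 was an air lung of 9 months, as it was for 28.9% of the 14433 genes with a mean of at least 1 CPM. In the library labelled KO air mouse 4, all 8 members lay above the 59 lungs outside these groups. In KO air mouse 5 it was 6 of 8, all but Chil1 and Muc5b, and in WT air mouse 5 also 6 of 8, all but Arg1 and Clca1. The count was 0 in each of the other 8 air lungs of 9 months. Of the 14433 genes the same held for 0.845%, 2.18%, 2.95%, 9.26%, 10.8% and 3.01% in KO air mice 1 to 6, against 3.55%, 2.54%, 2.14%, 1.83% and 8.29% in WT air mice 1 to 5.

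Chil3 was 671, 942, 1079, 6564, 2987 and 996 CPM in KO air mice 1 to 6, against 710.4, 673, 773, 850.4 and 7987 CPM in WT air mice 1 to 5. Against the median of the 59 other lungs (489.6 CPM), the library labelled KO air mouse 4 held 13.4 times as much, KO air mouse 5 held 6.10 times and WT air mouse 5 held 16.3 times. The silica lungs of 9 months ranged from 628 to 1526 CPM in KO (median 1003) and from 656 to 2466 CPM in WT (median 998). Silica and air overlapped in both genotypes, with or without these 3 lungs. Without WT air mouse 5, every WT silica lung but that with 656 CPM lay above every WT air lung.

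Chil1 was 86.9, 122, 144, 892, 357 and 95.0 CPM in KO air mice 1 to 6, against 91.7, 68.7, 99.9, 103 and 784 CPM in WT air mice 1 to 5. Silica lungs of 9 months ranged from 498 to 674 CPM in KO and from 368 to 721 CPM in WT. The library labelled KO air mouse 4 and WT air mouse 5 lay above all silica lungs, KO air mouse 5 lay below them, and the other 8 air lungs lay below every silica lung.

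Retnla was 82.1, 65.5, 59.4, 3589, 845 and 159.8 CPM in KO air mice 1 to 6, against 67.6, 44.6, 51.6, 87.3 and 566 CPM in WT air mice 1 to 5. The value in the library labelled KO air mouse 4 was 72.5 times the median of the 59 other lungs (49.5 CPM), 17.1 times in KO air mouse 5 and 11.4 times in WT air mouse 5. KO silica lungs of 9 months ranged from 74.8 to 180.2 CPM and WT silica lungs from 43.2 to 146 CPM.

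Arg1 was 2.22, 0.440, 1.33, 50.2, 16.7 and 0.590 CPM in KO air mice 1 to 6, against 2.13, 0, 0.420, 0.828 and 1.40 CPM in WT air mice 1 to 5. In counts, the library labelled KO air mouse 4 held 112 reads of Arg1, KO air mouse 5 held 37. WT air mouse 5 held 3. WT air mouse 5, the lung with the highest Chil3, was thus at the level of the other lungs for Arg1.

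Clca1 was 0, 0.440, 2.22, 2118, 477 and 16.5 CPM in KO air mice 1 to 6, against 0, 0, 0, 0 and 10.2 CPM in WT air mice 1 to 5. The library labelled KO air mouse 4 held 4726 reads of Clca1, KO air mouse 5 held 1054 and WT air mouse 5 held 22, while the 59 other lungs held 185 together, 69 of them in KO silica mouse 3 of 9 months. Set against Chil3 in the same lung, the Clca1 reads came to 32.3%, 16.0% and 0.128% of the Chil3 reads in these 3 lungs.

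The mucins followed the same lungs at different heights. Muc5ac was 2.22, 1.76, 2.66, 63.6, 16.3 and 1.18 CPM in KO air mice 1 to 6, against 1.42, 1.72, 1.26, 1.66 and 7.44 CPM in WT air mice 1 to 5. Muc5b was 45.5, 42.2, 117, 489, 104 and 54.3 CPM in KO air mice 1 to 6, against 44.8, 52.6, 36.1, 52.6 and 284 CPM in WT air mice 1 to 5. Relative to the median of the 59 other lungs, Muc5ac stood at 40.4 times in the library labelled KO air mouse 4, at 10.4 times in KO air mouse 5 and at 4.73 times in WT air mouse 5. For Muc5b the same ratios were 13.9, 2.94 and 8.07, so KO air mouse 5 and WT air mouse 5 changed places.

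Fcgbp was 4.44, 1.76, 5.76, 179.7, 42.5 and 3.54 CPM in KO air mice 1 to 6, against 3.56, 4.00, 3.36, 5.38 and 10.7 CPM in WT air mice 1 to 5. Chil4, the close copy of Chil3, showed the same split as Arg1 and Clca1, with 70.8 and 20.8 CPM in the library labelled KO air mouse 4 and in KO air mouse 5, against 1.86 CPM in WT air mouse 5, and at most 1 read in each of the 59 other lungs. Chia1, the acidic chitinase that does cut chitin, reached 333 and 177 CPM in these KO lungs, against 52.5 CPM in WT air mouse 5, where the 59 other lungs ranged from 15.2 to 77.5 CPM.

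**Figure D3:**
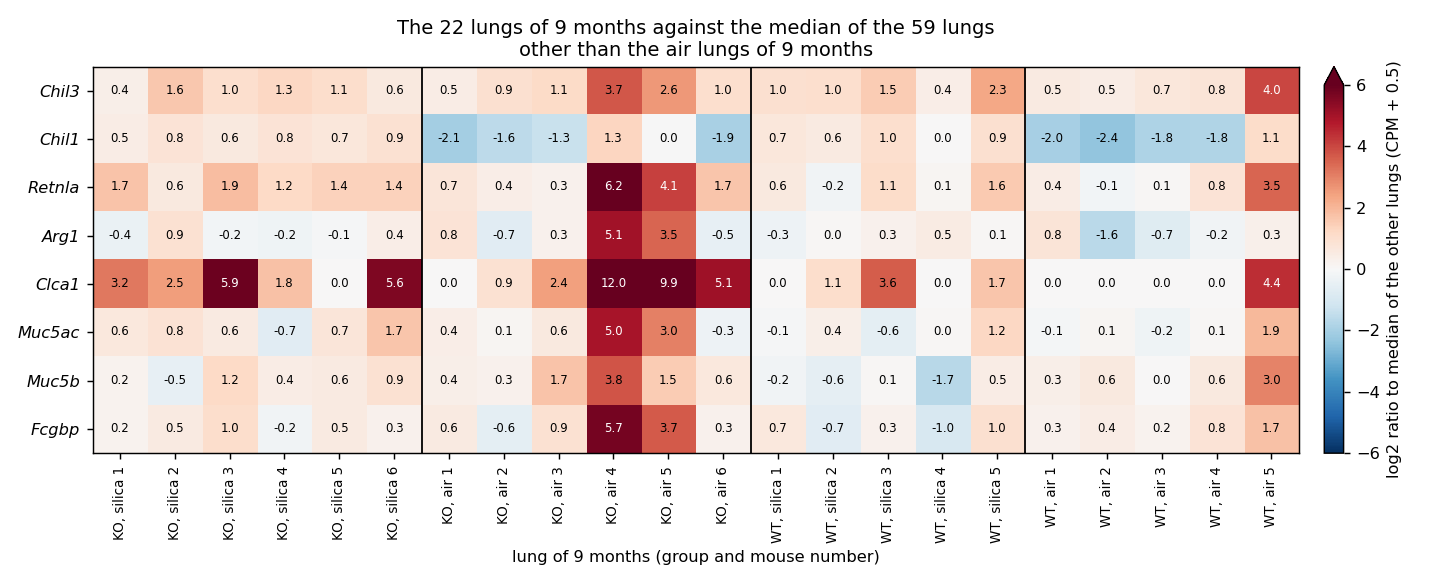
Log2 ratio (CPM plus 0.5) of each of the 22 lungs of 9 months (columns, in the order KO silica, KO air, WT silica and WT air) to the median of the 59 lungs outside the air groups of 9 months, for each member (rows). The library labelled KO air mouse 4 and KO air mouse 5 are high for nearly all members. On this scale WT air mouse 5 is high for Chil3, Retnla, Muc5b and Clca1, less so for Muc5ac, Fcgbp and Chil1, and not for Arg1. The median of the 59 takes in silica lungs, where Chil1 is high. Against the other WT air lungs of 9 months (68.7 to 103 CPM), Chil1 was 784 CPM in WT air mouse 5. Clca1, whose median is 0, has reads in 5 of 6 KO and 3 of 5 WT silica lungs.

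Likeness across lungs, a description over the 70 libraries, which share library type and span the same groups, was measured as Pearson r of log2(CPM + 0.5). Chil1 was most like Lcn2, the iron-binding defence protein lipocalin 2, at r = 0.98 (0.98 over the 59 lungs without the air lungs of 9 months), then Steap4 (0.95 and 0.95) and Ccl6 (0.93 and 0.96). Chil3 was most like Slc7a2, an arginine carrier, at 0.93 (0.84 over the 59), then the lysosomal protease Ctsd (0.91 and 0.85) and the mannose receptor Mrc1 (0.90 and 0.80). Retnla was most like Slpi (0.79 and 0.74), Ctsb (0.79 and 0.60) and Cfb (0.78 and 0.80).

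For the low members most of the likenesses were weaker without the air lungs of 9 months. Clca1 and Chil4 had r = 0.77 over 70 lungs and -0.02 over the 59, Fcgbp and Chil4 0.77 and 0.03, and Arg1 and Chil4 0.58 and -0.11. Arg1 and Apob differed little, at 0.52 over 70 lungs and 0.51 over the 59. Muc5b was most like Bpifb1 and Scgb3a1, products of airway secretory cells, at 0.72 and 0.71 (0.55 and 0.48 over the 59), and Muc5ac was most like Cd63 at 0.69 (0.45 over the 59). Clca1 was most like Rnase2a at 0.79 (0.48 over the 59). Between members, Chil1 and Retnla had r = 0.60 over the 70 lungs and 0.76 over the 59, while Clca1 and Retnla had 0.81 and 0.55.

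**Figure D4:**
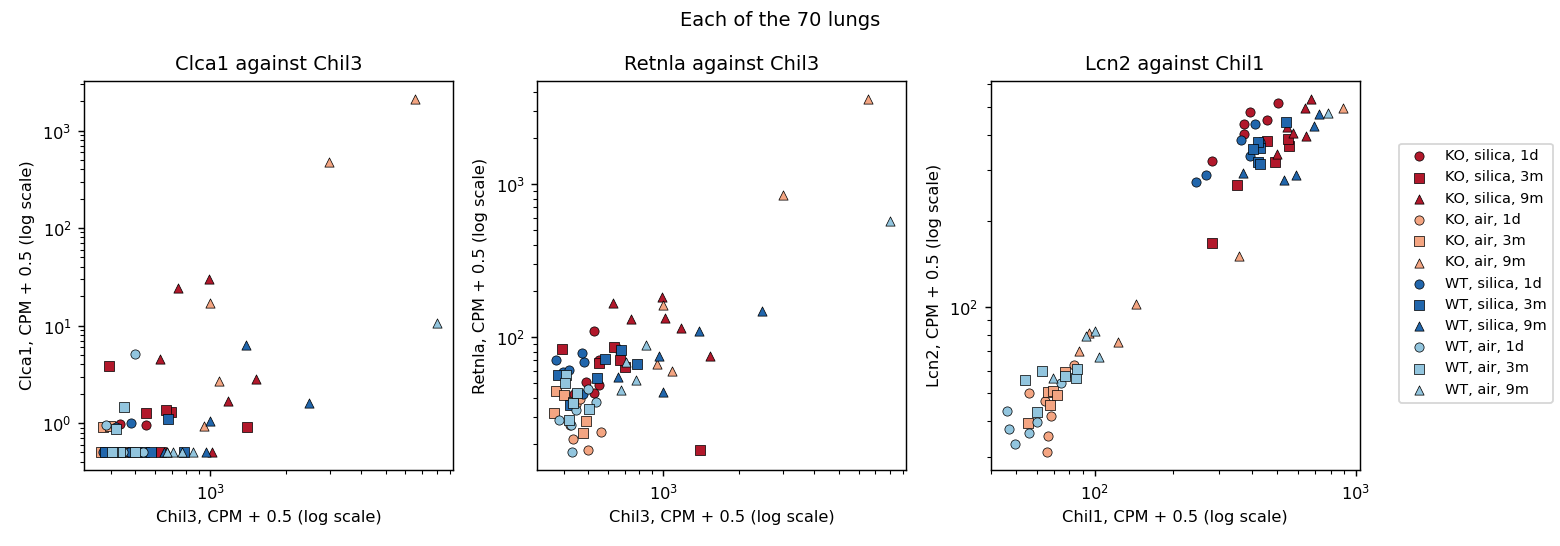
Each of the 70 lungs by Clca1 against Chil3, Retnla against Chil3 and Lcn2 against Chil1 (CPM plus 0.5, log axes; colour for genotype and exposure, marker shape for time). WT air mouse 5 has the highest Chil3 of all lungs, at 7987 CPM, but 10.2 CPM of Clca1, against 2118 CPM in the library labelled KO air mouse 4, and Chil1 and Lcn2 lie close to one line.

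Genes of the same pathways were counted from lists of symbols. Of 24 alternative macrophage genes, 23 had a row, and 16 were tested at 1 day and 17 at 3 months. In KO lungs 4 rose and 0 fell at 1 day and 5 rose and 0 fell at 3 months, with median log2 fold changes over the list of 0.13 and 0.35, against -0.0012 and 0.0016 over all genes tested. In WT lungs 4 rose and 1 fell at 1 day and 5 rose and 1 fell at 3 months, with medians of 0.21 and 0.095, against 0.00033 and -0.0068 over all genes. Of all genes tested, 1.70% and 3.02% rose in KO lungs at 1 day and 3 months, and 1.95% and 2.24% in WT lungs. The shares that fell were 0.223% and 1.78% in KO lungs and 0.422% and 0.720% in WT lungs. The chemokines Ccl17 and Ccl22, which draw cells through Ccr4, the lectin Mgl2 and the mitochondrial arginase Arg2 rose in KO lungs at both times. The 2 that fell in WT lungs were Klf4 (-0.92 ± 0.20, 1 day) and Flt1 (-0.32 ± 0.08, 3 months).

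In KO lungs Ccl17 rose by 3.01 ± 0.47 on the log2 scale at 1 day (SE, edgeR adjusted p = 6.47e-05) and by 3.64 ± 0.53 at 3 months (2.54e-05). In the same lungs Ccl22 rose by 2.12 ± 0.30 and 3.55 ± 0.37, Mgl2 by 0.82 ± 0.14 and 1.38 ± 0.14, and Arg2 by 1.26 ± 0.22 and 1.41 ± 0.25. In WT lungs Ccl17 rose by 2.52 ± 0.40 and 3.18 ± 0.42, Ccl22 by 1.80 ± 0.24 and 3.19 ± 0.30 and Mgl2 by 0.76 ± 0.13 and 1.31 ± 0.14, Arg2 rose by 1.35 ± 0.20 at 1 day, and the scavenger receptor Msr1 rose by 1.19 ± 0.30 at 3 months. These chemokines are also made by dendritic cells, and the whole-lung counts do not say which cells made them.

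Of 22 genes of type 2 cytokines, their receptors and signalling, 12 were tested at 1 day and 13 at 3 months. The shares of all genes are those given with the alternative macrophage list. At 1 day 0 passed in edgeR in either genotype, with 2 in KO and 1 in WT lungs at an unadjusted p under 0.05. The smallest adjusted p were for Cish (0.48 ± 0.18, adjusted p = 0.213) in KO lungs and Il13ra1 (0.29 ± 0.10, adjusted p = 0.144) in WT lungs. At 3 months 1 rose and 0 fell in each genotype, Il1rl1, the receptor of interleukin 33, by 1.11 ± 0.21 in KO lungs and 1.42 ± 0.20 in WT lungs. Il4, Il5 and Il13 were at or below 1.29, 0.532 and 0.426 CPM in the 59 lungs outside the air groups of 9 months.

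Of 29 goblet cell and mucus genes, 28 had a row and 10 were tested at each time. In KO lungs 3 rose at 1 day and 2 at 3 months, and in WT lungs 2 rose at 1 day and 3 at 3 months, with 0 lower throughout. Of all genes tested, 1.70% and 3.02% were higher in KO lungs at 1 day and 3 months, and 1.95% and 2.24% in WT lungs. The antibody carrier Pigr rose in KO lungs by 2.16 ± 0.14 at 1 day and 2.20 ± 0.23 at 3 months, and in WT lungs by 2.13 ± 0.12 and 2.18 ± 0.23. The membrane mucin Muc4 rose in KO lungs by 1.30 ± 0.17 and 0.55 ± 0.14, and in WT lungs by 1.14 ± 0.17 and 0.75 ± 0.13. Muc20 rose in KO lungs of 1 day (1.03 ± 0.27) and Muc1 in WT lungs of 3 months (0.39 ± 0.07), and both, like Muc4, encode membrane mucins, not gel-forming ones.

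Of 8 chitinase family genes, 7 had a row, 3 were tested and 0 passed in edgeR in the 4 silica comparisons, with 0 at an unadjusted p under 0.05. Chia1 had log2 fold changes of 0.19 ± 0.14 in KO and 0.12 ± 0.14 in WT lungs of 1 day, and -0.15 ± 0.17 and 0.26 ± 0.17 at 3 months. Of 14 classical macrophage genes, 9 were tested at 1 day and 8 at 3 months. In KO lungs 2 rose and 1 fell at 1 day and 2 rose at 3 months, and in WT lungs 2 rose at each time. The shares of all genes are those given with the alternative macrophage list. Tnf rose in KO lungs by 1.33 ± 0.27 at 1 day and 1.05 ± 0.31 at 3 months, and in WT lungs by 1.29 ± 0.30 at 1 day, where Ptgs2 also rose (0.90 ± 0.16), as it did in KO lungs (0.83 ± 0.16).

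Markers of other cell types moved with the silica groups, and their part in the members' changes was not tested. Of 12 alveolar macrophage markers 11 were tested. In KO lungs 3 rose at 1 day and 4 rose and 2 fell at 3 months, and in WT lungs 3 rose at 1 day and 3 rose and 4 fell at 3 months. The shares of all genes that rose are those given for the goblet cell list, and 0.223% and 1.78% of all genes fell in KO lungs at 1 day and 3 months, and 0.422% and 0.720% in WT lungs. The scavenger receptor Marco rose by 1.86 ± 0.16 and 1.99 ± 0.16 in KO lungs at 1 day and 3 months and by 1.13 ± 0.15 and 1.51 ± 0.16 in WT lungs, while Siglecf, which eosinophils share, fell by 1.10 on the log2 scale in KO lungs and by 1.48 in WT lungs of 3 months. Of 9 neutrophil markers, 5 were tested at 1 day and 6 at 3 months, with 0 and 1 higher in KO lungs (Cxcr2, 1.04 ± 0.28) and 2 and 0 in WT lungs (S100a9 0.92 ± 0.25, Cxcr2 0.68 ± 0.18).

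Of 10 airway secretory and ciliated markers 8 were tested, and only Cyp2f2 passed, falling by 0.27 and 0.37 on the log2 scale in KO lungs of 1 day and 3 months and by 0.37 in WT lungs of 1 day. Of 9 mast cell and basophil markers 1 was tested, Gata2, which fell by 0.42 in WT lungs of 1 day. The 10 markers of trachea, glands and squamous cells were all below the filter and summed to at most 3.73 CPM in any of the 59 lungs. Of the 8 lung markers, all tested, the surfactant protein gene Sftpa1 rose in all 4 comparisons, by 0.40 and 0.28 in KO lungs of 1 day and 3 months and by 0.30 and 0.37 in WT lungs. At 3 months Sftpb, another surfactant protein gene, fell by 0.30 in KO and by 0.23 in WT lungs. Hopx, a marker of alveolar type 1 cells, fell by 0.43 in KO lungs of 3 months.

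The same lists, read in the air lungs of 9 months, separated the 3 lungs further. Of the 23 alternative macrophage genes, 16 in the library labelled KO air mouse 4, 4 in KO air mouse 5 and 7 in WT air mouse 5 lay above all 59 other lungs, against at most 1 in each of the other 8 air lungs. Over all genes these shares were 9.26%, 10.8% and 8.29% in the 3 lungs. Mrc1, the mannose receptor, was 475, 237 and 440.4 CPM in these 3 lungs (59 others 110.1 to 247 CPM). Slc7a2, an arginine carrier, was 287, 147 and 292 CPM (50.5 to 145 CPM). Alox15, a lipoxygenase, was 77.1, 18.6 and 13.02 CPM (0.470 to 30.45 CPM), and Ccl24, which draws eosinophils, was 20.6, 7.24 and 0.465 CPM (0 to 1.89 CPM). Of the 14 classical macrophage genes, 5 in the library labelled KO air mouse 4, 0 in KO air mouse 5 and 1 in WT air mouse 5 lay above the 59. The list summed to 290.9, 199.6 and 167 CPM in these lungs, where the 59 reached 219.7 CPM. Of 8 neutrophil markers 3, 0 and 0 lay above the 59 in the same lungs. Their sums were 323, 180.2 and 95.3 CPM, where the 59 reached 318 CPM. KO air mouse 6, in which 0 members lay above the 59, had the highest neutrophil sum of these lungs, at 381 CPM, with 2 markers above the 59.

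Eosinophil markers summed to 146, 54.8 and 55.3 CPM in these lungs, in the same order, against 24.2 to 31.9 CPM in the other 8 air lungs and 9.82 to 47.3 CPM in the 59. These sums include Alox15, also on the alternative macrophage list with its values given above, and Siglecf, also on the alveolar macrophage list. They are thus not of eosinophils alone. Of the defining eosinophil genes, Epx was at 1.34, 0.453 and 0.465 CPM and Ear6 at 0 in all 70 lungs, while Ccr3 was at 28.7, 8.15 and 5.12 CPM (0.632 to 9.80 CPM in the 59). Alveolar macrophage markers summed to 1464, 786 and 1645 CPM, against 586 to 762 CPM in the other 8 air lungs. The part of these cells in the members' levels was not tested.

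Il33, an epithelial alarm cytokine, was 249.7, 109 and 146 CPM in the library labelled KO air mouse 4, KO air mouse 5 and WT air mouse 5, against 51.9 to 112 CPM in the 59 other lungs. Il4 was 1.79, 0.453 and 0 CPM, Il13 was 0.448, 0.453 and 0 CPM, and Il5 was 0, 0 and 0.465 CPM in the same lungs, too few reads to compare. Of the 22 genes of the type 2 list, 5, 1 and 5 lay above the 59 in the same lungs. Of the 28 goblet cell list genes with a row, 12, 4 and 7 did, in the same order. Over all genes these shares were 9.26%, 10.8% and 8.29%, and the goblet count in KO air mouse 5 was near its share. Scgb3a1 was 68.6, 20.8 and 76.3 CPM in these lungs and 76.6 CPM in KO air mouse 3, where the 59 had at most 10.5 CPM. Scgb1a1 was 8016, 6367 and 12418 CPM, within the 3888 to 16301 CPM of the 59. Lung defining markers summed to 20731, 21745 and 24889 CPM, within the range of the 59. Tracheal and gland markers summed to at most 1.34 CPM. The single lung markers went both ways. In KO air mouse 5 Sftpc (6749 CPM), Sftpa1 (3217 CPM), Ager (1738 CPM) and Hopx (491 CPM) lay above all 59, as did Sftpa1 in the library labelled KO air mouse 4 (3917 CPM) and Sftpc in WT air mouse 5 (5670 CPM). In the other 8 air lungs of 9 months 0 to 2 of the 8 did. The endothelial cadherin Cdh5 was lower in these lungs, at 395, 378 and 363 CPM. The 59 others ranged from 506.9 to 1061 CPM.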

How the data were processed

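Whole-lung total RNA of 70 mice was sequenced as stranded, ribosome-depleted libraries. Per the submitters' processing notes, the build was mm10 and the tools named were HTSeq 0.11.2, HISAT2 2.1.0, Trimmomatic 0.35, bcl2fastq 2.19, SAMtools 1.8 and Cufflinks. The annotation, the strand setting and the treatment of reads that fit several genes are not given in the sources used here. The deposited table holds the authors' raw counts per gene. Of its 24439 rows, 19 exact repeats were dropped. Libraries held 802478 to 5596316 counts, Lars2 took 8.33% of all counts, and no 2 libraries were identical (chi-square per degree of freedom between libraries of a group 1.47 to 14.3).

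Counts were scaled with TMM factors and tested with edgeR 4.0.16 (quasi-likelihood, filterByExpr, R 4.3.3), p adjusted by Benjamini-Hochberg over all genes tested. One fit covered the 24 libraries of each of 1 day and 3 months, one the 22 of 9 months, one the 48 of 1 day and 3 months, and one the 35 silica libraries. Each standard error was derived from the fold change and its F statistic. CPM used the factors of all 70 libraries. The script was tested on simulated data. Alternatives were DESeq2 1.42.0, limma 3.58.1 voom, other scalings, filters and sample sets, and leaving out each library. Samples were taken as separate mice, and whether mice of a group shared a litter or cage is not given in the sources used here, so p-values measure the spread between these samples.

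The members and the gene lists were chosen with earlier results of these data known. Named were all 8 members, Slc26a4, from each list up to 4 genes past the threshold by smallest adjusted p (or the 2 smallest where none passed), and the 3 genes most like each member. Not all of these are printed, and other genes given in the air lungs of 9 months were chosen after their values were seen.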

Additional observations from a re-analysis of the deposited data

Results flagged for a closer look

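A lung far from the others of its group (the gap to the nearest lung, over the range of the group, past Dixon's 95% limit) was found in 25 of 88 sets of 1 member in 1 group, and 14 of these were in air lungs of 9 months. The members were chosen by single values in air lungs of 9 months, so these counts are a description and are set against no chance rate. No cause was tested.

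In the library labelled KO air mouse 4 (9 months) 7 members were far above the next lung of the group, with Arg1 at 50.2 CPM, Chil1 at 892 CPM, Clca1 at 2118 CPM, Fcgbp at 179.7 CPM, Muc5ac at 63.6 CPM, Muc5b at 489 CPM and Retnla at 3589 CPM. In WT air mouse 5 of 9 months 7 members were, with Chil1 at 784 CPM, Chil3 at 7987 CPM, Clca1 at 10.2 CPM, Fcgbp at 10.7 CPM, Muc5ac at 7.44 CPM, Muc5b at 284 CPM and Retnla at 566 CPM.

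KO silica mouse 3 of 3 months had the highest Chil3 of its group, at 1404 CPM against 699 CPM in the next lung, and the lowest Retnla, at 17.7 CPM against 62.7 CPM in the next lung. Chil1 was 541 CPM in WT silica mouse 3 of 3 months, against 429 CPM in the next lung.

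The other sets rest on few reads. Arg1 was 3.23 CPM in KO air mouse 4 of 1 day, 5.34 CPM in KO silica mouse 5 of 3 months, 8.99 CPM in KO air mouse 4 of 3 months and 3.78 CPM in WT air mouse 1 of 3 months. Clca1 was 4.60 CPM in WT air mouse 6 of 1 day, 3.33 CPM in KO silica mouse 1 of 3 months and 5.77 CPM in WT silica mouse 3 of 9 months. Muc5ac was 2.32 CPM in WT air mouse 3 of 1 day.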

How the results depend on the processing

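No paired analysis was possible because the mouse numbers follow the order of deposit and the titles share no number between groups. The causes of the changes below were not tested.

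With all libraries in one model, which takes in the air lungs of 9 months, the members called in silica against air were 1 in KO and 1 in WT lungs of 1 day and 1 in KO lungs of 3 months (Chil1 in each), and those called at 9 against 3 months 0 in KO and 0 in WT silica lungs. Under voom, 2 members were called in WT lungs of 3 months (Retnla 0.67, adjusted p = 0.0394), 2 at 9 against 3 months in KO silica lungs (Chil3 0.63, adjusted p = 0.0270) and 1 at 3 months against 1 day in WT air lungs. With the compared groups only, 2 were called in WT lungs of 3 months and 1 at 3 months against 1 day in WT air lungs (Muc5b 1.25, adjusted p = 0.0451). Library totals gave 1 at 3 months against 1 day in KO silica lungs (Chil3 0.53). With no filter and with a mean of at least 1 CPM, 2 were called at 9 against 3 months in KO silica lungs, Clca1 being the added one.

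Leaving out each library gave 2 to 3 calls in KO lungs of 1 day, 2 to 3 in KO and 1 to 2 in WT lungs of 3 months, 0 to 1 at 3 months against 1 day in KO silica lungs, and 1 to 2 in KO and 0 to 1 in WT silica lungs at 9 against 3 months. The count of 8 members highest in an air lung of 9 months did not change, but these lungs chose the members, so that count is only a description.

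Signs turned only for values that passed under no setting here. The Retnla interaction at 1 day was -0.0070 with totals and -0.0601 under voom (-0.2102 to 0.1942 without each library). Muc5b, KO against WT silica at 3 months, was 0.0721 under voom. Chil1 at 3 months against 1 day in KO air lungs was 0.0010 with RLE factors, 0.0050 in DESeq2, 0.0001 with no filter, 0.0025 with compared groups only and 0.0006 with all libraries (-0.0446 to 0.0631 without each library). Without each library, KO against WT ranged for Retnla over -0.3223 to 0.0204 in silica and -0.2613 to 0.0053 in air lungs of 1 day and -0.0779 to 0.2353 in silica lungs of 3 months. For Chil1 it ranged over -0.0464 to 0.1312 in silica and -0.1324 to 0.0011 in air lungs of 3 months and -0.0868 to 0.1354 in silica lungs of 9 months. For Chil3 it ranged over -0.0043 to 0.1004 in air lungs of 1 day and -0.5181 to 0.0185 in silica lungs of 9 months. At 3 months against 1 day Retnla ranged over -0.0407 to 0.3124 in KO and -0.1770 to 0.0655 in WT silica lungs, its change of silica effect in KO lungs over -0.3858 to 0.0090, and that of Chil1 in WT lungs over -0.1293 to 0.0252.
Of the single-gene values under other settings, 7 gained and 7 lost the call, 8 turned sign and 667 were unchanged. The 667 include group medians of 9 months under other scalings. These medians have no call and were taken as unchanged within the standard deviation of the group. Depth limits Arg1, Clca1, Muc5ac and Fcgbp, which were mostly at a few reads.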
